A study of Mus musculus with 24 samples.

Results

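The genes described here are 34 genes of the unfolded protein response and of protein folding in the endoplasmic reticulum (ER), measured in mouse splenic B cells after stimulation of the B cell receptor. They were chosen by name, each measured by the probe sets that carry its symbol alone, and each gene is given by the brightest of these by its mean over all arrays. All 34 were found, on 83 probe sets, and all 34 passed the filter on low signal, among 14318 genes tested. Of the 34, 32 lay above the filter level on all 24 arrays, and 2, Trib3 and Chac1, on some arrays only. The 34 fall into 9 ER chaperones and cofactors, 4 protein disulphide isomerases, 2 lectin chaperones, 4 genes of the translocon, 6 of ER-associated degradation, 3 stress sensors and 6 of the integrated stress response.

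Secreted and membrane proteins, immunoglobulin among them, enter the ER through the translocon and fold there with the help of chaperones, disulphide isomerases and the lectins that bind their sugar chains. When unfolded protein builds up, the sensors encoded by Ern1 (IRE1), Eif2ak3 (PERK) and Atf6 raise the transcription of folding genes and of genes that return misfolded protein to the cytosol for degradation, and PERK slows translation by phosphorylating the initiation factor eIF2. That phosphorylation favours translation of Atf4, whose targets Ddit3 (CHOP), Trib3, Chac1 and Asns also respond to amino acid shortage through other eIF2 kinases, which is why this branch is called the integrated stress response. In the B lineage the pathway is best known for the expansion of the ER as plasma cells form.

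The 24 arrays cover 2 genotypes and 4 times, 0, 3, 8 and 16 h of anti-IgM, which binds and clusters the receptor's surface IgM. Each of the 8 groups has 3 biological replicates. No group was kept for 3, 8 or 16 h without anti-IgM, so stimulation and time in culture cannot be told apart. In the knockout (KO) mice, exon 3 of Nfatc1, which codes for the part of the NFATc1 transcription factor that binds calcineurin, is flanked by loxP sites and removed by Cre from the Cd79a (mb1) locus, so the deletion is restricted to B cells. The control mice are labelled WT, and the labels used here do not say whether they carried Cre or the loxP allele. All are C57BL/6 and are given as 6 to 8 weeks old. Spleen cells were stimulated, B cells were enriched with beads, and RNA was taken from them. The labels do not say whether arrays that share a replicate number come from 1 mouse or pool.

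Values are log2 MAS5 signals, and a change is a difference of log2 group means from limma, so that 1 is a 2-fold difference. The deposited signals of every array share 1 trimmed mean, so each change is relative to the other genes of its array. In such bulk samples fewer cells of a type and less RNA per cell cannot be told apart. The level of the filter lay between 5.38 and 6.43 on the log2 scale. B cells were the labelled type, and all 5 tested B cell markers were lower at each stimulated time in both genotypes, with mean levels over the list of 13.15 to 13.58 at 0 h and 11.47 to 11.69 at 16 h in WT. Of 5 tested plasma cell markers 3 were higher and 1 lower at 3 h in WT, and 3 of 5 NK cell markers were lower at 16 h, with list means of 6.38 to 7.55 at 0 h and 5.19 to 5.75 at 16 h. The 4 T cell markers had list means of 4.53 to 6.03 at 0 h and 4.84 to 5.45 at 16 h in WT, and none passed at 16 h. Of 5 tested neutrophil markers 2 were lower at 16 h in WT and 1 in KO, with list means of 8.43 to 8.94 at 0 h and 6.51 to 7.27 at 16 h in WT, and 5.10 to 8.51 and 6.33 to 9.06 in KO. Of 6 macrophage and monocyte markers 1 was higher and 1 lower at 16 h in WT (8.26 to 9.16 at 0 h, 7.43 to 8.46 at 16 h). The part of these shifts in the changes given here was not tested. All 4 arrays of WT replicate 2 show male-type expression of Y-linked genes (mean 8.75 to 9.26, against 2.59 to 4.93 on the others). KO 0 h replicate 1 stands apart from the other KO 0 h arrays in several of the genes described here, among them Trib3, Ppp1r15a and Ddit3, whose values are given with and without it. The brightest Nfatc1 probe set was higher in KO (0.56 averaged over the times, adjusted p = 1.12e-05). Where it lies relative to the deleted exon is not known here, so it does not check the labels.

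The ER stress response element, to which ATF6 and the transcription factor NF-Y bind together, reads CCAAT, 9 bases, then CCACG. It was searched on both strands of RefSeq promoter windows (GRCm38.p6) that run from 250 bases before to 50 bases after each annotated start of transcription. Of the 34 genes, 29 have a window, and 8 of the 29 (27.6%) hold the element, against 37 of 27025 genes in all (0.137%). The 9 matches are shown because 7 chaperone, isomerase and lectin genes and 1 degradation gene hold the element. Each is written in the direction of the element, with the fixed bases in capitals. The first base is the one that comes first along the strand of the gene. The matches of Hsp90b1 at -107, Creld2 and Calr lie on the other strand, so there it is the last letter written.
Hspa5, first base -65 from the start: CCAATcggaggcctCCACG
Hsp90b1, first base -212 from the start: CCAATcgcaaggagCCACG
Hsp90b1, first base -107 from the start: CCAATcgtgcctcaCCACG
Dnajc3, first base -105 from the start: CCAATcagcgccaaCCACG
Creld2, first base -126 from the start: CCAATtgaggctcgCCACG
Pdia6, first base -98 from the start: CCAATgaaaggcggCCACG
Calr, first base -162 from the start: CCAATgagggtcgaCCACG
Canx, first base -145 from the start: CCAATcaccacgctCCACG
Syvn1, first base -44 from the start: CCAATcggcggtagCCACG

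A shorter form, element II (ATTGG, 1 base, then CCACG), was found in 2 of the 29 (6.9%), against 0.0444% of all genes. The C/EBP-ATF element (TGATG, 1 base, then AA), which ATF4 binds, was found in 4 of the 29 (13.8%), against 4.51% of all genes. These are shown because 3 of the 4 belong to the integrated stress response, and Herpud1 holds both kinds. The C/EBP-ATF matches of Herpud1, Trib3 and Chac1 lie on the other strand, so their first base along the gene is the last letter written. The UPR element TGACGTGG matched in 0 of the 29 windows and in 0.714% of all genes. None of these matches was tested, a match is not a bound site, and the lack of one says only that these letters are not in this window.
Dnajb11, first base 8 from the start: ATTGGcCCACG
Herpud1, first base -52 from the start: ATTGGgCCACG
Herpud1, first base -112 from the start: TGATGcAA
Trib3, first base 15 from the start: TGATGtAA
Chac1, first base -193 from the start: TGATGcAA
Asns, first base -23 from the start: TGATGaAA

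Whole windows are printed for Hspa5, Hsp90b1, Chac1 and Herpud1, which stand for the kinds of match, with matches in capitals and read along the strand of the gene, so that a match on the other strand appears as its reverse complement. The windows are Hspa5 chr2:34771840-34772139 (plus strand), Hsp90b1 chr10:86705395-86705694 (minus strand), Chac1 chr2:119350992-119351291 (plus strand) and Herpud1 chr8:94386179-94386478 (plus strand).
Hspa5: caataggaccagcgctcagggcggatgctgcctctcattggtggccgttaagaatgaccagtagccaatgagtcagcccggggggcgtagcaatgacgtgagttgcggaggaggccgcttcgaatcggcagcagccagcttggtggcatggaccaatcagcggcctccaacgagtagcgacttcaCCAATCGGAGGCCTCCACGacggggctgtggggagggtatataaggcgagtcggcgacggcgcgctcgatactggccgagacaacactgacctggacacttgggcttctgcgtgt
Hsp90b1: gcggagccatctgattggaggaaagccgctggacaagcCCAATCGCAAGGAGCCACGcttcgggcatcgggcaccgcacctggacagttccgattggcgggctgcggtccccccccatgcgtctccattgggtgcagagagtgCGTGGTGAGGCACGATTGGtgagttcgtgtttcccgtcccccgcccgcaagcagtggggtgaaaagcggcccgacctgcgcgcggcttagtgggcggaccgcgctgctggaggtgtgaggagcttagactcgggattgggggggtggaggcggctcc
Chac1: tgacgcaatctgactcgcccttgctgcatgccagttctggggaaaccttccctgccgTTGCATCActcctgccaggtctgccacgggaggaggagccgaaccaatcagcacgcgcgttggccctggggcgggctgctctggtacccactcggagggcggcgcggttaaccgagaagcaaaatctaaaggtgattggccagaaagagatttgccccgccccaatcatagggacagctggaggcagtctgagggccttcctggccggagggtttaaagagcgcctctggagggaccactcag
Herpud1: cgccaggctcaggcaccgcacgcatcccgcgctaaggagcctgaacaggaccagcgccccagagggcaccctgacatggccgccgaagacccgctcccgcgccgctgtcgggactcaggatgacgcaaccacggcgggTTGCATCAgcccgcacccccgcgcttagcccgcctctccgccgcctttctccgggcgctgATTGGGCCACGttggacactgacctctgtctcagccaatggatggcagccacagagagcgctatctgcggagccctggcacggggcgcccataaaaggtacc

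**Figure D1:**
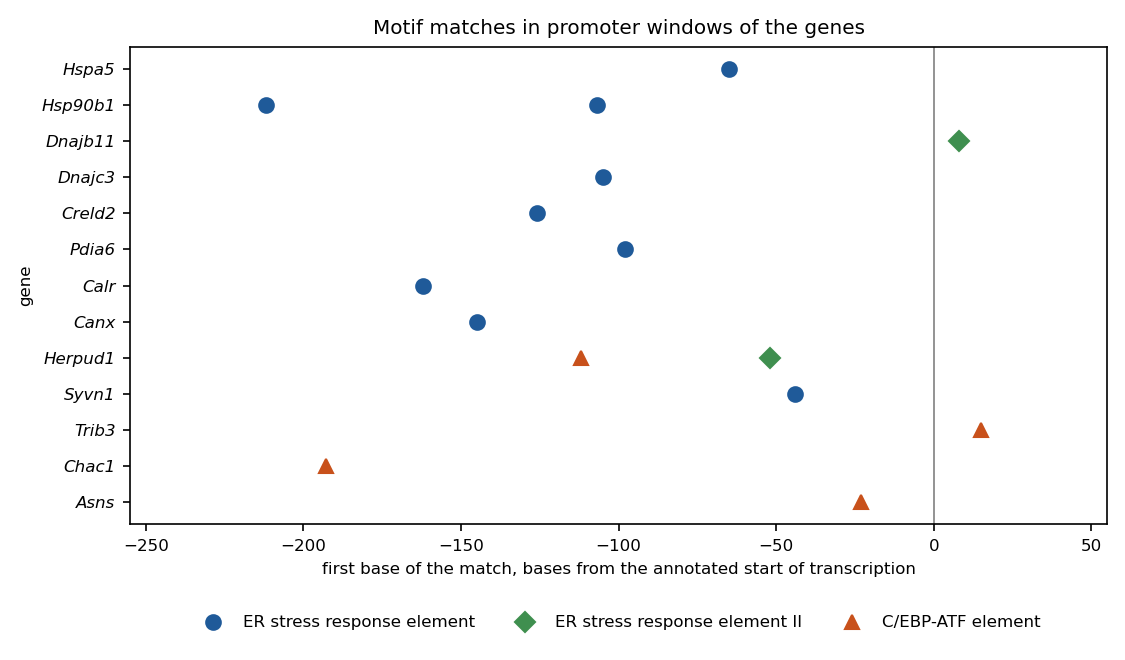
Positions of the motif matches in the promoter windows of the 13 genes that hold one, as the distance in bases of the first base of the match from the annotated start of transcription. The 9 matches to the ER stress response element all lie before the start, between -212 and -44, and only 2 matches, element II of Dnajb11 and the C/EBP-ATF element of Trib3, lie after it.

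After stimulation these genes differed from 0 h in both directions. Chac1, Trib3, Ddit3 and Atf4 of the integrated stress response were highest at 3 h, the translocon genes, P4hb and Canx were higher from 3 or 8 h on, and Dnajb9, Ppp1r15a, Eif2ak3 and Herpud1 fell. In WT 9 genes were higher and 5 lower at 3 h (26.5% and 14.7% of the 34, against 17% and 21.3% of all genes tested). At 8 h 14 were higher and 5 lower (41.2% and 14.7%, against 17.7% and 15.7%), and at 16 h 11 were higher and 9 lower (32.4% and 26.5%, against 20.9% and 18.5%). The higher share thus stood above that of all genes at each time in WT, most at 8 h. The lower share was under that of all genes at 3 h, near it at 8 h and over it at 16 h. The median change of the 34 at 3, 8 and 16 h was 0.05, 0.32 and 0.32 in WT, where all genes had -0.14, -0.04 and 0.05.

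KO gave nearly the same counts. There 9 were higher and 5 lower at 3 h (all genes 16.6% and 21.7%), 15 higher and 4 lower at 8 h (all genes 17.3% and 14.4%), and 11 higher and 11 lower at 16 h (all genes 19.4% and 16.4%). The median changes were 0.06, 0.41 and 0.36, where all genes had -0.11, 0.02 and 0.08. Over the 3 times 24 of the 34 passed in WT, 26 in KO and 27 in either. These counts were not made over all genes tested, so whether they set the 34 apart is not known. The 7 that passed in neither genotype by their brightest probe sets are Sdf2l1, Pdia3, Calr, Sel1l, Ern1, Atf6 and Asns. Another probe set of Pdia3 and of Calr was called higher at 8 h in KO. The labels do not say whether replicate numbers pair the arrays. With the number added to the fit as a block, all 7 genes except Ern1 were called at some time.

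Under all 13 alternative settings and without any single array, 7 of the 14 WT calls at 3 h, 7 of 19 at 8 h and 13 of 20 at 16 h were kept, and 10 of 14, 12 of 19 and 11 of 22 in KO. Those kept at every time in both genotypes were P4hb, Sec61a1, Ssr1 and Chac1. In WT Pdia4, Ddit3 and Trib3 were also kept at 3 h, Pdia6, Eif2ak3 and Ppp1r15a at 8 h, and Dnajb9, Creld2, Pdia6, Canx, Sec61b, Ssr3, Eif2ak3, Ddit3 and Ppp1r15a at 16 h. In KO Pdia4, Canx, Edem1, Syvn1, Ddit3 and Trib3 were also kept at 3 h, Dnajb11, Manf, Creld2, Pdia6, Canx, Herpud1, Eif2ak3 and Ppp1r15a at 8 h, and Dnajb9, Pdia6, Canx, Herpud1, Eif2ak3, Ddit3 and Ppp1r15a at 16 h. Without the 4 male-type arrays of WT replicate 2, 9 were higher and 2 lower at 3 h in WT, 11 and 3 at 8 h, and 11 and 5 at 16 h. With each array scaled to its median, the splits were 11 higher and 2 lower, 11 and 3, and 10 and 4 at the 3 times in WT, and 9 and 2, 12 and 4, and 6 and 7 in KO. That scaling moved the median change of all genes at 3 h from -0.14 to 0.09 in WT. The calls of lower expression that it ended were those of Hsp90b1, Eif2ak3 and Ppp1r15a at 3 h, Pdia4 and Herpud1 at 8 h, and Pdia4, Herpud1, Syvn1, Derl1 and Atf4 at 16 h in WT. In KO they were those of Herpud1, Eif2ak3 and Ppp1r15a at 3 h, and Dnajc3, Edem1, Derl1 and Atf4 at 16 h. It also ended the higher calls of Manf, Sec61b and Derl2 at 8 h and Derl2 at 16 h in WT, and in KO those of Hsp90b1, Sec61b and Derl2 at 8 h and Dnajb11, Creld2, Sec61b, Ssr3 and Derl2 at 16 h.

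**Figure D2:**
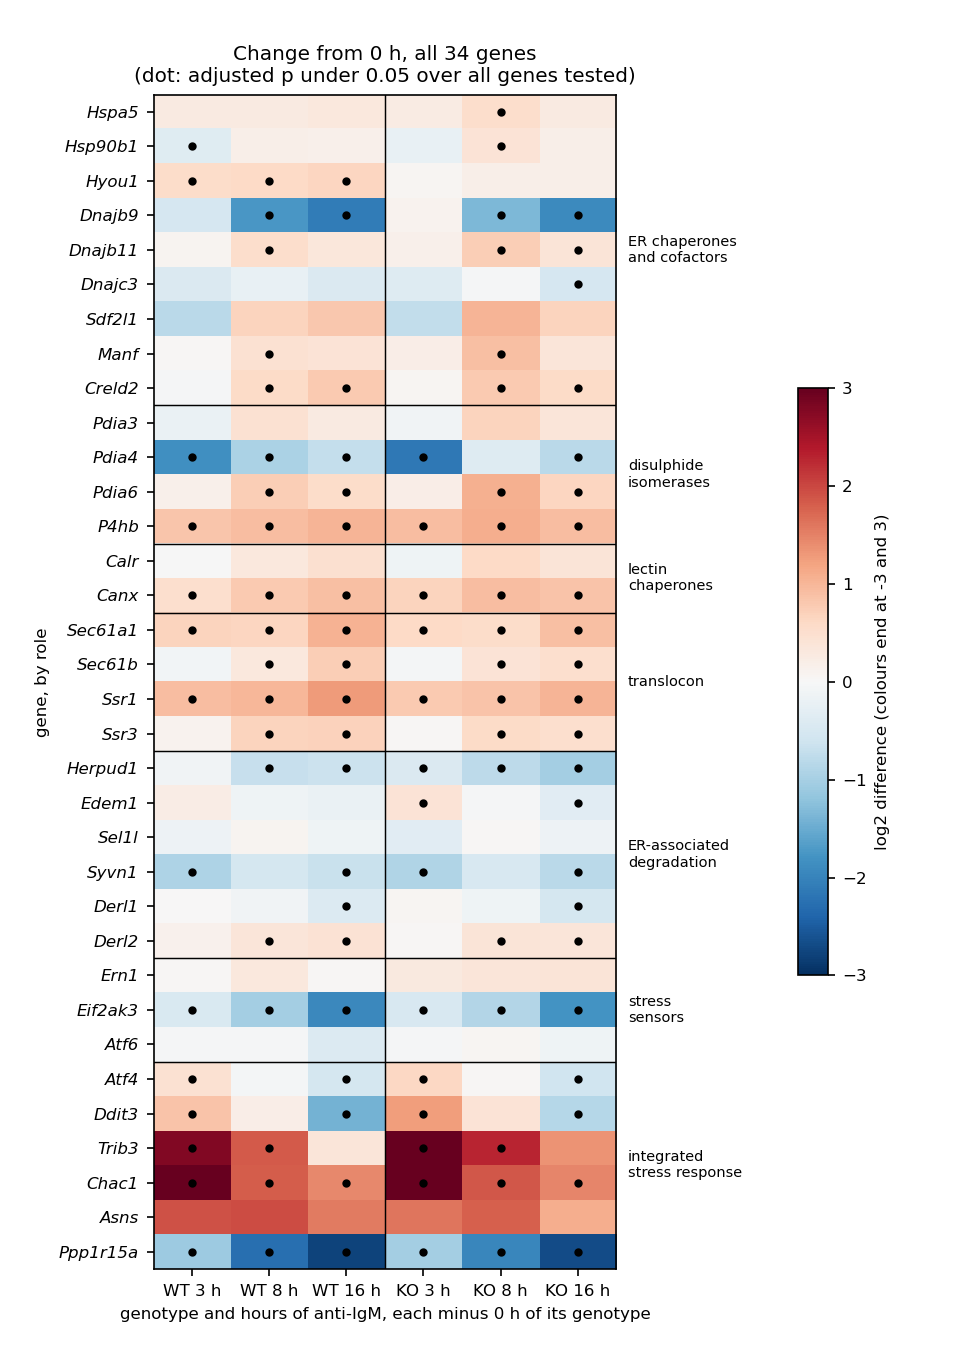
Change from 0 h in log2 units for all 34 genes, by role, in WT (left 3 columns) and KO (right 3 columns) at 3, 8 and 16 h, with a dot where the adjusted p is under 0.05. Red is higher than at 0 h and blue lower. Trib3 and Chac1 at 3 h are the reddest cells (2.79 to 3.45), Ppp1r15a at 16 h the bluest (-2.78 in WT), and the 4 translocon genes carry a dot in every 8 h and 16 h column.

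Chac1, a glutathione-degrading enzyme induced through ATF4, rose at 3 h in both genotypes. Values are given in the order of replicates 1, 2 and 3. In WT Chac1 read 5.39, 5.17 and 5.24 unstimulated, 9.11, 8.32 and 8.28 after 3 h, 7.52, 7.002 and 6.74 after 8 h, and 6.32, 6.80 and 6.99 after 16 h. In KO Chac1 read 5.75, 6.004 and 4.78 unstimulated, 9.27, 9.19 and 8.42 after 3 h, 7.14, 7.94 and 7.05 after 8 h, and 6.61, 7.46 and 6.89 after 16 h. All 6 arrays of 3 h lie above all others, and the 0 h arrays lie below all stimulated ones. The change at 3 h was 3.30 (SE 0.363, adjusted p = 8.83e-08) in WT and 3.45 (SE 0.363, adjusted p = 4.88e-08) in KO. The 0 h signal was below the filter level on 3 of 3 WT arrays and on 1 of 3 in KO. With each 0 h array at no less than its filter level, Chac1 was at least 6.78-fold higher at 3 h in WT and at least 8.92-fold in KO. From 3 to 8 h Chac1 fell again (-1.48 with SE 0.363 and adjusted p = 0.00657 in WT, -1.58 with SE 0.363 and adjusted p = 0.00319 in KO), and at 16 h it was still above 0 h (1.44 and 1.47), at least 1.86-fold and 2.27-fold by the same bound.

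Trib3, a pseudokinase and feedback inhibitor of this branch, was also highest at 3 h by its means. In WT Trib3 read 6.51, 6.79 and 4.29 unstimulated, 9.05, 8.61 and 8.29 after 3 h, 7.81, 7.92 and 7.39 after 8 h, and 6.91, 5.38 and 6.41 after 16 h. In KO Trib3 read 3.65, 6.79 and 5.74 unstimulated, 9.08, 8.87 and 8.33 after 3 h, 7.22, 8.30 and 7.52 after 8 h, and 5.85, 7.44 and 6.95 after 16 h. At 0 h WT replicate 3 and KO replicate 1 lie far below the rest, and the 3 h arrays lie above those of the other times, except that KO 8 h replicate 2 (8.30) is level with the lowest of them (8.29). It rose at 3 h by 2.79 (SE 0.641, adjusted p = 0.00109) in WT and 3.36 (SE 0.641, adjusted p = 0.000152) in KO, and at 8 h by 1.84 (SE 0.641, adjusted p = 0.0284) and 2.29 (SE 0.641, adjusted p = 0.0073). Without KO 0 h replicate 1 the KO changes of Trib3 were 2.49 (adjusted p = 0.00202) after 3 h and 1.42 (adjusted p = 0.0848) after 8 h, the second no longer past the threshold. The WT 8 h call ended without WT 0 h replicate 3, WT 8 h replicate 1 or WT 8 h replicate 2 (adjusted p up to 0.23). At 16 h the values were 0.37 (SE 0.641, adjusted p = 0.716) in WT and 1.35 (SE 0.641, adjusted p = 0.109) in KO, the latter 0.48 (adjusted p = 0.615) without KO 0 h replicate 1. The step from 3 to 8 h did not pass for Trib3 (-0.94 with SE 0.641 and adjusted p = 0.39 in WT, -1.07 with SE 0.641 and adjusted p = 0.283 in KO).

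Ddit3 encodes CHOP, a transcription factor linked to death of stressed cells, and went from a rise to a fall. In WT Ddit3 read 10.46, 10.19 and 10.53 unstimulated, 11.48, 11.09 and 11.19 after 3 h, 10.66, 10.67 and 10.45 after 8 h, and 8.89, 8.94 and 9.10 after 16 h. In KO Ddit3 read 9.56, 10.50 and 10.43 unstimulated, 11.45, 11.46 and 11.34 after 3 h, 10.31, 10.90 and 10.52 after 8 h, and 9.28, 9.24 and 9.39 after 16 h. The 3 h arrays are the highest and the 16 h arrays the lowest in both genotypes. The rise at 3 h was 0.86 (SE 0.186, adjusted p = 0.000595) in WT and 1.25 (SE 0.186, adjusted p = 6.86e-06) in KO. The fall at 16 h was -1.42 (SE 0.186, adjusted p = 1.01e-06) and -0.86 (SE 0.186, adjusted p = 0.000647). From 8 to 16 h alone it dropped in both genotypes (-1.62 and -1.27). Without KO 0 h replicate 1 the KO changes of Ddit3 were 0.95 (adjusted p = 3.62e-05) after 3 h and -1.16 (adjusted p = 3.16e-06) after 16 h. In a fit of every probe set on its own, its second probe set gave -0.10 (SE 0.287, adjusted p = 0.835) at 3 h and -1.72 (SE 0.287, adjusted p = 3.53e-05) at 16 h in WT, so the fall passed on both and the rise on the brighter one only.

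Atf4 encodes the factor itself, whose activity is set mainly by its translation. In WT Atf4 read 13.00, 13.24 and 12.56 unstimulated, 13.49, 13.43 and 13.28 after 3 h, 12.86, 13.01 and 12.77 after 8 h, and 12.42, 12.14 and 12.63 after 16 h. In KO Atf4 read 12.60, 13.29 and 12.86 unstimulated, 13.68, 13.53 and 13.37 after 3 h, 12.99, 13.00 and 12.87 after 8 h, and 12.35, 12.01 and 12.56 after 16 h. It was higher at 3 h (0.47 with SE 0.174 and adjusted p = 0.0368 in WT, 0.61 with SE 0.174 and adjusted p = 0.00656 in KO) and lower at 16 h (-0.54 with SE 0.174 and adjusted p = 0.0157 and -0.61 with SE 0.174 and adjusted p = 0.00744). These calls were sensitive to single arrays. In WT the 3 h call ended without WT 0 h replicate 1, WT 0 h replicate 3, WT 3 h replicate 1 or WT 3 h replicate 2 (adjusted p up to 0.252), and the 16 h call without WT 0 h replicate 1, WT 0 h replicate 2 or WT 16 h replicate 2 (adjusted p up to 0.118). In KO the 3 h call ended without KO 0 h replicate 1 (adjusted p up to 0.0594), and the 16 h call without KO 0 h replicate 2 or KO 16 h replicate 2 (adjusted p up to 0.0756).

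Asns, asparagine synthetase, had large differences that did not pass. In WT Asns read 9.28, 7.59 and 8.44 unstimulated, 11.82, 8.34 and 10.86 after 3 h, 11.43, 9.07 and 10.68 after 8 h, and 10.99, 8.57 and 10.43 after 16 h. In KO Asns read 9.12, 8.20 and 8.58 unstimulated, 11.03, 9.24 and 10.48 after 3 h, 11.01, 9.53 and 10.74 after 8 h, and 10.26, 8.34 and 10.57 after 16 h. Replicate 2 was the lowest of its group in all 8 groups, and replicate 1 the highest in 7. The changes at 3, 8 and 16 h were 1.90, 1.95 and 1.56 in WT (adjusted p = 0.0565, 0.0565 and 0.123) and 1.61, 1.79 and 1.09 in KO (adjusted p = 0.111, 0.085 and 0.31). The WT change of Asns at 3 h passed in limma after quantile normalization (adjusted p = 0.0433), median scaling (0.0473) and a filter at the 60th percentile (0.0464). It passed with the replicate number as a block (2.02e-05) or random block (0.00728), and without the 2 arrays of highest background (0.0443). Without the arrays past a limit on Y-linked signal (0.00813) or the 4 male-type arrays (0.00542) it passed too. Under the remaining settings it did not, with 0.102 in limma's fit without trend. Set against the 0 h array of the same number, the value was higher in 3 of 3 at each time in both genotypes.

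Ppp1r15a (GADD34), the phosphatase subunit that reverses eIF2 phosphorylation, went the other way from the start. In WT Ppp1r15a read 12.41, 12.63 and 11.82 unstimulated, 11.32, 11.61 and 10.69 after 3 h, 9.84, 10.64 and 9.62 after 8 h, and 9.57, 9.25 and 9.71 after 16 h. In KO Ppp1r15a read 10.90, 13.09 and 12.25 unstimulated, 11.33, 11.26 and 10.58 after 3 h, 10.07, 10.31 and 10.02 after 8 h, and 9.41, 9.10 and 9.68 after 16 h. The fall deepened from -1.08 (SE 0.371, adjusted p = 0.0234) at 3 h to -2.26 (SE 0.371, adjusted p = 3.18e-05) at 8 h and -2.78 (SE 0.371, adjusted p = 1.33e-06) at 16 h in WT. In KO it was -1.02, -1.95 and -2.69 (adjusted p = 0.0319, 0.000208 and 2.85e-06), although KO 0 h replicate 1 lies below 2 of the 3 h arrays. Without that array the KO changes were -1.61 (adjusted p = 0.00028), -2.54 (adjusted p = 1.67e-06) and -3.28 (adjusted p = 3.49e-08). The 3 h call ended in WT without WT 0 h replicate 1, WT 0 h replicate 2 or WT 3 h replicate 3 (adjusted p up to 0.129), and in KO without KO 0 h replicate 2, KO 0 h replicate 3 or KO 3 h replicate 3 (adjusted p up to 0.289).

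**Figure D3:**
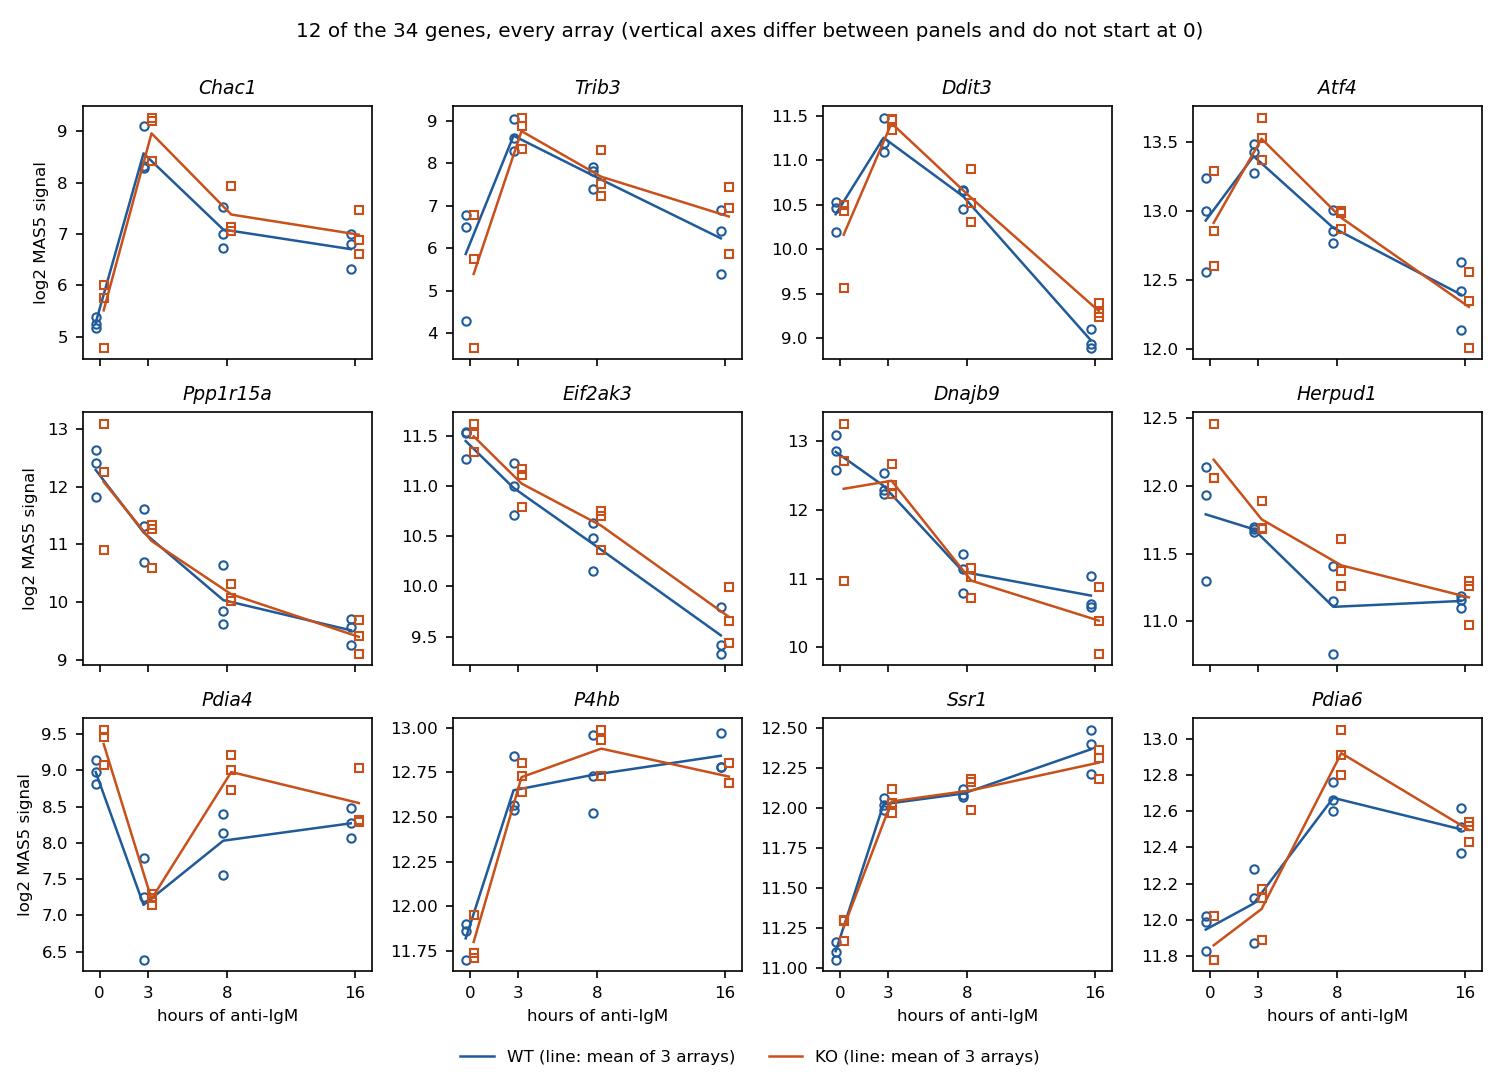
Log2 MAS5 signal of 12 of the 34 genes on every array against hours of anti-IgM (circles WT, squares KO, lines through the means of 3 arrays); the vertical axes differ between panels. The upper row peaks at 3 h, the middle row falls, Pdia4 dips at 3 h, and P4hb, Ssr1 and Pdia6 rise. KO 0 h replicate 1 is the low square at 0 h in Ddit3 (9.56), Trib3 (3.65), Ppp1r15a (10.90) and Dnajb9 (10.96).

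Of the 3 sensors only Eif2ak3, which encodes PERK, passed the test. In WT Eif2ak3 read 11.53, 11.27 and 11.54 unstimulated, 10.71, 11.00 and 11.23 after 3 h, 10.63, 10.15 and 10.48 after 8 h, and 9.42, 9.33 and 9.79 after 16 h. In KO Eif2ak3 read 11.34, 11.62 and 11.52 unstimulated, 10.79, 11.17 and 11.11 after 3 h, 10.36, 10.70 and 10.75 after 8 h, and 9.44, 9.65 and 9.997 after 16 h. It fell at all 3 times, with differences from 0 h of -0.46 (SE 0.171, adjusted p = 0.0346), -1.02 (SE 0.171, adjusted p = 3.85e-05) and -1.94 (SE 0.171, adjusted p = 2.44e-09) in WT. In KO they were -0.47 (SE 0.171, adjusted p = 0.0312), -0.89 (SE 0.171, adjusted p = 0.000227) and -1.80 (SE 0.171, adjusted p = 1.19e-08). The 16 h arrays of both genotypes lie below all earlier ones, 3.82-fold and 3.48-fold under 0 h by their means. The 3 h call ended in WT without WT 0 h replicate 1, WT 0 h replicate 3, WT 3 h replicate 1 or WT 3 h replicate 2 (adjusted p up to 0.188), and in KO without KO 0 h replicate 2, KO 0 h replicate 3 or KO 3 h replicate 1 (adjusted p up to 0.162).

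Ern1, which encodes IRE1, had differences from 0 h of 0.05, 0.32 and 0.03 in WT and 0.29, 0.35 and 0.39 in KO, with 95% intervals of 0.51 on either side. Atf6 had -0.03, -0.05 and -0.41 in WT and -0.03, 0.05 and -0.13 in KO, with intervals of 0.45. Neither gene passed at any time, which does not show that they stayed level.

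Among the chaperones Dnajb9 (ERdj4), a cofactor that keeps IRE1 in check, fell most. In WT Dnajb9 read 12.85, 13.09 and 12.58 unstimulated, 12.28, 12.53 and 12.23 after 3 h, 11.14, 11.36 and 10.79 after 8 h, and 10.59, 10.63 and 11.04 after 16 h. In KO Dnajb9 read 10.96, 13.25 and 12.70 unstimulated, 12.67, 12.36 and 12.23 after 3 h, 11.03, 11.16 and 10.72 after 8 h, and 10.38, 9.91 and 10.88 after 16 h. The fall was -1.75 (SE 0.35, adjusted p = 0.000308) at 8 h and -2.09 (SE 0.35, adjusted p = 2.96e-05) at 16 h in WT. In KO the fall was -1.34 (SE 0.35, adjusted p = 0.0043) and -1.92 (SE 0.35, adjusted p = 0.000103). KO 0 h replicate 1 lies with the 8 h arrays. Without it the KO changes were -0.56 (adjusted p = 0.0764), -2.01 (adjusted p = 8.01e-07) and -2.59 (adjusted p = 1.78e-08). The 3 h value, 0.11 with that array, did not pass with or without it. The 8 h call in KO ended without KO 0 h replicate 2 (adjusted p up to 0.0549).

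Other cofactors rose by 8 h. Creld2, a secreted ER stress protein with disulphide isomerase activity, rose by 0.58 (SE 0.149, adjusted p = 0.00351) at 8 h and 0.79 (SE 0.149, adjusted p = 0.000116) at 16 h in WT. In KO the rise was 0.79 (SE 0.149, adjusted p = 0.000192) and 0.58 (SE 0.149, adjusted p = 0.0032). Dnajb11 (ERdj3), which hands unfolded chains to BiP, rose at 8 h by 0.53 (SE 0.138, adjusted p = 0.00387) and 0.73 (SE 0.138, adjusted p = 0.000187). At 16 h it passed in KO alone (0.39 with SE 0.138 and adjusted p = 0.0294, against 0.33 with SE 0.138 and adjusted p = 0.063 in WT), and the difference between the genotypes did not pass. The KO call ended without KO 0 h replicate 1, KO 0 h replicate 2 or KO 16 h replicate 3 (adjusted p up to 0.135).

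Manf, a secreted ER stress factor, rose at 8 h. In WT Manf read 11.70, 11.58 and 11.98 unstimulated, 11.97, 11.53 and 11.90 after 3 h, 12.14, 12.22 and 12.26 after 8 h, and 11.82, 12.34 and 12.30 after 16 h. In KO Manf read 11.60, 11.65 and 12.05 unstimulated, 11.93, 11.70 and 12.23 after 3 h, 12.80, 12.62 and 12.60 after 8 h, and 12.03, 11.91 and 12.43 after 16 h. The change at 8 h was 0.45 (SE 0.169, adjusted p = 0.0429) in WT and 0.91 (SE 0.169, adjusted p = 0.00015) in KO, and all 3 KO arrays at 8 h lie above all others. The WT call ended without any one of 5 of the 24 arrays (adjusted p up to 0.169).

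Hspa5 (BiP), the main chaperone of the ER lumen and keeper of the sensors, read 14.37, 14.55 and 14.21 unstimulated, 14.84, 14.59 and 14.54 after 3 h, 14.69, 14.78 and 14.51 after 8 h, and 14.81, 14.75 and 14.50 after 16 h in WT. In KO Hspa5 read 14.34, 14.49 and 14.22 unstimulated, 14.75, 14.43 and 14.58 after 3 h, 14.94, 15.02 and 14.66 after 8 h, and 14.77, 14.72 and 14.35 after 16 h. Its differences from 0 h were 0.28, 0.28 and 0.31 in WT, none past the threshold, and in KO it passed at 8 h (0.52 with SE 0.138 and adjusted p = 0.00472). The WT difference at 3 h passed after quantile normalization (adjusted p = 0.0027) and median scaling (0.0212), and that at 8 h after quantile normalization (0.0085). With the replicate number as a block all 3 passed (0.0233, 0.0241 and 0.0112), at 16 h also as a random block (0.0322). Under the remaining settings they did not pass. Hsp90b1 (GRP94), which folds toll-like receptors and integrins, was lower at 3 h in WT (-0.35 with SE 0.133 and adjusted p = 0.039) and higher at 8 h in KO (0.40 with SE 0.133 and adjusted p = 0.023). It rose from 3 to 8 h in both (0.52 with SE 0.133 and adjusted p = 0.00944 and 0.62 with SE 0.133 and adjusted p = 0.00195). Of these calls the WT one at 3 h ended without WT 0 h replicate 1, WT 3 h replicate 1 or WT 3 h replicate 2 (adjusted p up to 0.181), and the KO one at 8 h without KO 0 h replicate 1, KO 0 h replicate 2 or KO 8 h replicate 1 (adjusted p up to 0.155).

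Hyou1 (GRP170), which exchanges the nucleotide of BiP, was higher at all 3 times in WT (0.56, 0.60 and 0.64, adjusted p = 0.046, 0.036 and 0.0207) and did not pass in KO (0.06, 0.19 and 0.17). Its KO 0 h arrays read 10.26, 9.55 and 10.75, wider apart than in WT (9.82, 10.08 and 9.45), and its difference between genotypes did not pass at any time. The WT calls ended at 3 h without any one of 15 of the 24 arrays (adjusted p up to 0.223), at 8 h without WT 0 h replicate 1, WT 0 h replicate 3 or WT 8 h replicate 1 (adjusted p up to 0.187), and at 16 h without WT 0 h replicate 3 or WT 16 h replicate 2 (adjusted p up to 0.128).

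Dnajc3 (P58IPK) was lower at 16 h in KO (-0.50 with SE 0.184 and adjusted p = 0.0366), and its WT difference was -0.43 (SE 0.184, adjusted p = 0.0665). The KO call ended without any one of 5 of the 24 arrays (adjusted p up to 0.174). In a fit of every probe set on its own, another probe set of Dnajc3 was called lower at 16 h in WT. At 3 h this was so in both genotypes. Sdf2l1, a partner of ERdj3, did not pass against 0 h. Its differences at 3 h were -0.81 in WT and -0.73 in KO, and every 3 h array lay below the 0 h array of the same number in both. It rose from 3 to 8 h (1.47 with SE 0.407 and adjusted p = 0.0153 in WT, 1.75 with SE 0.407 and adjusted p = 0.00347 in KO).

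The 4 disulphide isomerases did not move together. P4hb (PDI), which forms and rearranges disulphide bonds, read 11.86, 11.90 and 11.70 unstimulated, 12.84, 12.57 and 12.54 after 3 h, 12.73, 12.96 and 12.52 after 8 h, and 12.78, 12.97 and 12.78 after 16 h in WT. In KO P4hb read 11.74, 11.95 and 11.71 unstimulated, 12.80, 12.73 and 12.64 after 3 h, 12.99, 12.93 and 12.73 after 8 h, and 12.80, 12.69 and 12.69 after 16 h. Every stimulated array lies above every 0 h array. The rise was already 0.83 (SE 0.116, adjusted p = 3.2e-06) at 3 h in WT and 0.93 (SE 0.116, adjusted p = 6.54e-07) in KO, and 1.02 and 0.93 at 16 h.

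Pdia6 (P5), which also shuts off IRE1, passed from 8 h on. In WT Pdia6 read 12.02, 11.83 and 11.99 unstimulated, 12.28, 11.87 and 12.12 after 3 h, 12.76, 12.60 and 12.66 after 8 h, and 12.37, 12.62 and 12.51 after 16 h. In KO Pdia6 read 11.78, 11.78 and 12.02 unstimulated, 12.17, 11.89 and 12.12 after 3 h, 13.05, 12.80 and 12.91 after 8 h, and 12.52, 12.43 and 12.54 after 16 h. The rise at 8 h was 0.73 (SE 0.113, adjusted p = 1.49e-05) in WT and 1.06 (SE 0.113, adjusted p = 9.86e-08) in KO, with no overlap of the 8 h and 0 h arrays. In KO it fell back from 8 to 16 h (-0.42 with SE 0.113 and adjusted p = 0.0321), a call that ended without any one of 5 of the 24 arrays (adjusted p up to 0.147).

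Pdia4 (ERp72) showed the deepest dip at 3 h. In WT Pdia4 read 8.81, 9.14 and 8.98 unstimulated, 7.79, 6.39 and 7.25 after 3 h, 8.40, 7.56 and 8.13 after 8 h, and 8.06, 8.48 and 8.27 after 16 h. In KO Pdia4 read 9.46, 9.07 and 9.56 unstimulated, 7.30, 7.14 and 7.24 after 3 h, 9.004, 8.72 and 9.21 after 8 h, and 8.29, 9.04 and 8.32 after 16 h. In both genotypes the 3 h arrays lie below all 0 h arrays. The fall at 3 h was -1.83 (SE 0.282, adjusted p = 1.07e-05) in WT and -2.14 (SE 0.282, adjusted p = 1.35e-06) in KO, 3.57-fold and 4.41-fold. It then came back from 3 to 8 h by 0.89 (SE 0.282, adjusted p = 0.0339) in WT and 1.75 (SE 0.282, adjusted p = 0.000129) in KO. At 16 h it was below 0 h in WT (-0.71 with SE 0.282 and adjusted p = 0.0496) and in KO (-0.81 with SE 0.282 and adjusted p = 0.0261). The WT call at 16 h ended without any one of 19 of the 24 arrays (adjusted p up to 0.158). The KO call at 16 h ended without KO 0 h replicate 1, KO 0 h replicate 3, KO 16 h replicate 1 or KO 16 h replicate 3 (adjusted p up to 0.11). The WT call at 8 h (-0.95 with SE 0.282 and adjusted p = 0.0106) ended without WT 8 h replicate 2 (adjusted p up to 0.083).

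Pdia3 (ERp57), the isomerase that works with the lectins, did not pass, with 0.45 in WT and 0.67 in KO at 8 h (adjusted p = 0.278 and 0.0897). Replicate 3 was the highest in all 8 groups. Of the lectin chaperones, which hold glycoproteins until they fold, Canx rose at all times (0.51 with SE 0.184 and adjusted p = 0.0316, 0.80 with SE 0.184 and adjusted p = 0.00133 and 0.89 with SE 0.184 and adjusted p = 0.00032 in WT, 0.67, 0.92 and 0.86 in KO). Its WT call at 3 h ended without WT 0 h replicate 1, WT 0 h replicate 2 or WT 3 h replicate 3 (adjusted p up to 0.184). Calr had 0.32 and 0.47 in WT and 0.60 and 0.38 in KO at 8 and 16 h and did not pass, and its replicate 3 was the lowest in all 8 groups. Set against the 0 h array of the same number, Calr and Pdia3 were higher in 3 of 3 at 8 and 16 h in both genotypes. In a fit of every probe set on its own, another probe set of each was called higher at 8 h in KO.

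By their brightest probe sets all 4 translocon genes were higher at 8 and 16 h in both genotypes. Ssr1, a subunit of the translocon-associated protein complex, read 11.16, 11.05 and 11.10 unstimulated, 11.99, 12.02 and 12.06 after 3 h, 12.07, 12.08 and 12.12 after 8 h, and 12.21, 12.40 and 12.49 after 16 h in WT. In KO Ssr1 read 11.30, 11.17 and 11.29 unstimulated, 12.12, 11.97 and 12.03 after 3 h, 12.16, 11.99 and 12.18 after 8 h, and 12.31, 12.18 and 12.36 after 16 h. Its replicates lie close together, and every stimulated array lies above every 0 h array. The rise was 0.92 (SE 0.0907, adjusted p = 1.57e-08) at 3 h and 1.27 (SE 0.0907, adjusted p = 8e-11) at 16 h in WT. In KO it was 0.79 (SE 0.0907, adjusted p = 1.91e-07) and 1.03 (SE 0.0907, adjusted p = 3.58e-09). By the means this is 2.41-fold and 2.04-fold at 16 h in WT and KO.

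Sec61a1, the subunit that forms the channel, read 11.81, 11.81 and 11.96 unstimulated, 12.67, 12.50 and 12.41 after 3 h, 12.44, 12.68 and 12.38 after 8 h, and 12.93, 12.96 and 12.83 after 16 h in WT. In KO Sec61a1 read 11.91, 11.90 and 11.83 unstimulated, 12.41, 12.53 and 12.52 after 3 h, 12.47, 12.51 and 12.29 after 8 h, and 12.89, 12.68 and 12.76 after 16 h. It rose by 0.67 (SE 0.0993, adjusted p = 6.52e-06) at 3 h and 1.05 (SE 0.0993, adjusted p = 6.55e-09) at 16 h in WT. In KO the rise was 0.61 (SE 0.0993, adjusted p = 2.37e-05) and 0.89 (SE 0.0993, adjusted p = 1.19e-07). Its other probe sets did not all follow. Of the other 5, 4 of Sec61a1 rose at 16 h in WT (0.48 to 0.78), while the fifth gave -0.58 (SE 0.159, adjusted p = 0.00541) in WT and -0.72 (SE 0.159, adjusted p = 0.000985) in KO. A probe set of Sec61a1 also passed with the opposite sign to the brightest at 8 h in KO.

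Sec61b, a small subunit of the channel, and Ssr3, another subunit of the translocon-associated complex, passed from 8 h on. Sec61b had 0.73 (SE 0.122, adjusted p = 3.01e-05) in WT and 0.51 (SE 0.122, adjusted p = 0.00184) in KO at 16 h, and Ssr3 0.69 (SE 0.182, adjusted p = 0.00359) and 0.50 (SE 0.182, adjusted p = 0.0343). At 8 h Sec61b had 0.32 (SE 0.122, adjusted p = 0.0492) and 0.41 (SE 0.122, adjusted p = 0.0121), and Ssr3 0.66 (SE 0.182, adjusted p = 0.00581) and 0.58 (SE 0.182, adjusted p = 0.0155). The calls of Sec61b ended in WT at 8 h without any one of 18 of the 24 arrays (adjusted p up to 0.261), and in KO at 8 h without KO 0 h replicate 3 or KO 8 h replicate 1 (adjusted p up to 0.0787). Those of Ssr3 ended in WT at 8 h without WT 0 h replicate 3 or WT 8 h replicate 2 (adjusted p up to 0.0546), and in KO at 8 h without KO 0 h replicate 1, KO 0 h replicate 3, KO 8 h replicate 1 or KO 8 h replicate 2 (adjusted p up to 0.109). The KO call of Ssr3 at 16 h ended without KO 0 h replicate 1, KO 0 h replicate 3, KO 16 h replicate 1 or KO 16 h replicate 2 (adjusted p up to 0.13).

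Of the 6 genes of ER-associated degradation, 3 were lower and 1 higher at 16 h in WT (all genes 18.5% and 20.9%). In KO 4 were lower and 1 higher by the brightest probe sets (all genes 16.4% and 19.4%). Of these 4, Edem1 had a second probe set that passed in the opposite direction. Herpud1, a membrane protein that organises the degradation complex, read 11.30, 11.93 and 12.14 unstimulated, 11.66, 11.68 and 11.70 after 3 h, 10.76, 11.15 and 11.41 after 8 h, and 11.19, 11.16 and 11.10 after 16 h in WT. In KO Herpud1 read 12.06, 12.06 and 12.46 unstimulated, 11.89, 11.69 and 11.68 after 3 h, 11.26, 11.61 and 11.37 after 8 h, and 11.26, 10.97 and 11.30 after 16 h. WT 0 h replicate 1 lies within the range of the stimulated arrays, and the other 0 h arrays lie above all of these. Its fall was -0.69 (SE 0.174, adjusted p = 0.00311) at 8 h and -0.64 (SE 0.174, adjusted p = 0.00445) at 16 h in WT. In KO the fall was -0.78 (SE 0.174, adjusted p = 0.00106) and -1.02 (SE 0.174, adjusted p = 4.68e-05). Its 3 h call in KO (-0.44 with SE 0.174 and adjusted p = 0.049) ended without any one of 17 of the 24 arrays (adjusted p up to 0.229).

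Syvn1 (HRD1), the ubiquitin ligase of this pathway, fell at 3 h (-0.92 with SE 0.252 and adjusted p = 0.00494 in WT, -0.90 with SE 0.252 and adjusted p = 0.00603 in KO) and at 16 h (-0.68 with SE 0.252 and adjusted p = 0.0347 and -0.80 with SE 0.252 and adjusted p = 0.0147). The 16 h calls ended in WT without WT 0 h replicate 1, WT 0 h replicate 2, WT 16 h replicate 1 or WT 16 h replicate 3 (adjusted p up to 0.176), and in KO without KO 0 h replicate 1, KO 0 h replicate 2 or KO 16 h replicate 3 (adjusted p up to 0.0988). Its partner Sel1l did not pass (-0.16 in WT and -0.34 in KO at 3 h, adjusted p = 0.417 and 0.0529).

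The derlins, which help to draw proteins out of the ER, went opposite ways. Derl1 was lower at 16 h (-0.41 with SE 0.113 and adjusted p = 0.00512 in WT, -0.52 with SE 0.113 and adjusted p = 0.000707 in KO) and Derl2 higher (0.45 with SE 0.103 and adjusted p = 0.0011 in WT, 0.36 with SE 0.103 and adjusted p = 0.00824 in KO). The WT call of Derl1 ended without WT 16 h replicate 2 (adjusted p up to 0.0503). Edem1, which passes misfolded glycoproteins on for degradation, was higher at 3 h (0.41 with SE 0.107 and adjusted p = 0.00363) and lower at 16 h (-0.34 with SE 0.107 and adjusted p = 0.0141) in KO, the latter ended without KO 0 h replicate 2 (adjusted p up to 0.0682). Its second probe set was higher at 16 h in WT (0.63 with SE 0.17 and adjusted p = 0.00494) and in KO (0.58 with SE 0.17 and adjusted p = 0.00954), so no direction at 16 h is given for this gene.

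Between 3 and 8 h several folding genes rose while genes of the integrated stress response fell. From 3 to 8 h in WT 8 genes were higher and 8 lower (all genes 10.3% and 5.57%), among them 4 chaperones and cofactors and 2 disulphide isomerases higher and 4 genes of the integrated stress response lower. In KO 10 were higher and 5 lower (all genes 13.2% and 6.01%), with 5 and 2 of those groups higher and 3 of the integrated stress response lower. The WT count rested on single arrays, and without WT 3 h replicate 2, 3 of the 34 passed. Under all settings and left-out arrays 0 of the 16 WT calls and 6 of the 15 KO calls were kept, those of Dnajb9, Sdf2l1, Pdia4, Pdia6, Ddit3 and Chac1 in KO. With arrays scaled to their median, 0 were higher and 2 lower in WT and 3 were higher and 3 lower in KO. The shares of all genes under that scaling are not given here. From 8 to 16 h 2 were higher and 2 lower in WT (all genes 3.83% and 3.92%) and 1 higher and 4 lower in KO (all genes 2.4% and 2.26%), and Ddit3 was the one that kept its call in both under all settings.

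In WT 3 of the 8 genes with the ER stress response element were called higher at 8 h, and in KO 5. Of those with a window but without the element 8 of 21 were higher in both (all genes 17.7% in WT, 17.3% in KO). Called lower at 8 h were 0 of the 8 with the element in both genotypes. Without it 5 of 21 were lower in WT and 4 of 21 in KO (all genes 15.7% and 14.4%). At 3 h the element's 8 genes had a median change of -0.02 in WT and -0.04 in KO, and the other 21 had 0.08 and 0.11. Of the 4 genes with the C/EBP-ATF element, Chac1 and Trib3 rose at 3 h, Asns had large differences that did not pass, and Herpud1 fell. These are descriptions of few genes.

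The changes in KO followed those in WT from gene to gene. Across the 34 the change in KO followed that in WT with r = 0.978 at 3 h, 0.973 at 8 h and 0.962 at 16 h, where each genotype has its own 0 h arrays and the genes are not independent replicates. At 3 h 12 genes passed in both genotypes, at 8 h 17 and at 16 h 19, and all of these had the same direction in both. Neither r nor these counts were computed over all genes tested, so whether this sets the 34 apart is not known. By their brightest probe sets, those past the threshold in 1 genotype were 4 genes at each time, Hyou1 among them each time. In none did the difference between the genotypes pass.

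**Figure D4:**
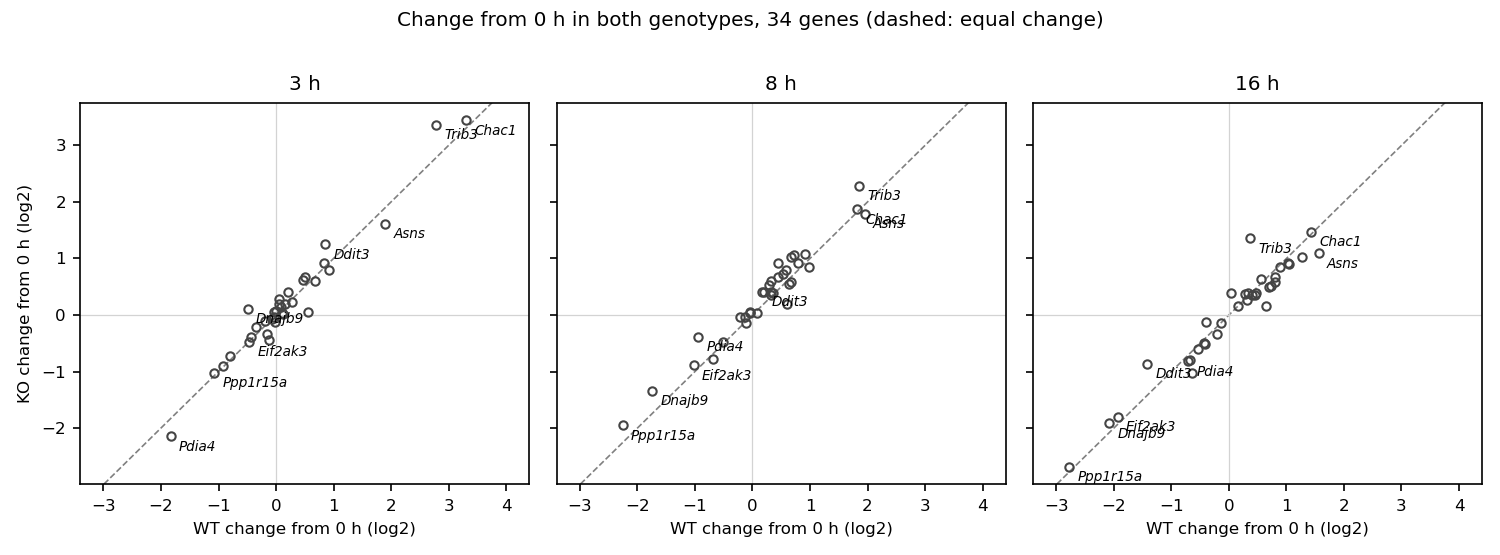
Change from 0 h in KO (vertical axis, log2) against that in WT (horizontal axis, log2) for the 34 genes, at 3, 8 and 16 h, 1 circle per gene, with the dashed line marking equal change. The circles lie along the line at each time (r = 0.978, 0.973 and 0.962), with Chac1 and Asns near the upper end at each time. Pdia4 is the lowest circle at 3 h and Ppp1r15a at 8 and 16 h, and at 16 h Trib3 lies off the line (0.37 in WT, 1.35 in KO).

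No gene of the 34 passed the test of KO minus WT. The count was 0 averaged over the 4 times (all genes 1.21%), at 0 h (0.0349%), 3 h (0.0559%), 8 h (0.0978%) and 16 h (0.615%). It was also 0 for the difference in change at 3 h (0%), 8 h (0%) and 16 h (0.021%) and for limma's F-test over the 3 (0.014%). At an unadjusted p under 0.05 there were 2 averaged over the times and 1, 0, 3 and 0 at the 4 times in order, and 0, 0 and 1 for the difference in change at 3, 8 and 16 h and 0 for the F-test. In the averaged contrast 5.88% of the 34 had such a p, against 9.65% of all genes. The count stayed 0 in each of these contrasts under each of the 13 settings (12 for the F-test) and without each array in turn.

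How far the genotypes could differ unseen is set by the intervals. Averaged over the times, the 95% interval ran from 0.09 to 0.80 on either side of the difference, with a median of 0.18, widest for Asns, and for all 34 it lay within a 2-fold difference. At single times the median was 0.37 and the widest 1.60, so that a 2-fold difference at 8 h lies within the interval of 5 of the 34.

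Pdia4 came closest. Averaged over the times it was 0.42 higher in KO (95% interval 0.13 to 0.72, adjusted p = 0.192 by limma). At 8 h its KO arrays lay between 8.72 and 9.21 and its WT arrays between 7.56 and 8.40, which do not overlap, a difference of 0.95 (0.36 to 1.53, adjusted p = 0.391 by limma). Without WT 8 h replicate 2 the 8 h difference was 0.71 (adjusted p = 0.88).

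The interval also left out 0 for Manf at 8 h (0.47, 0.12 to 0.82, adjusted p = 0.649 by limma), whose KO arrays all lie above its WT arrays. The same held for Pdia6 at 8 h (0.24, 0.01 to 0.48) and Herpud1, 0.20 higher averaged over the times (0.02 to 0.38). At 0 h 1 gene had such an interval. Herpud1 had 0 h means of 12.2 in KO and 11.79 in WT, where WT replicate 1 read 11.3. For Ddit3 the change at 16 h was -0.86 in KO and -1.42 in WT, a difference in change of 0.56 (0.02 to 1.10, adjusted p = 1 by limma). That value was 0.26 without KO 0 h replicate 1, the array in which Ddit3 was low at 0 h. Of the 5 tested plasma cell markers 1 passed KO minus WT averaged over the times, Jchain, the joining chain of secreted antibody (1.59, adjusted p = 3.62e-05 by limma). The other 4 had -0.39 (Prdm1, adjusted p = 0.09 by limma), -0.26 (Sdc1, 0.797), -0.14 (Irf4, 0.827) and 0.11 (Slamf7, 0.965). The part of the Jchain signal in these differences was not tested.

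**Figure D5:**
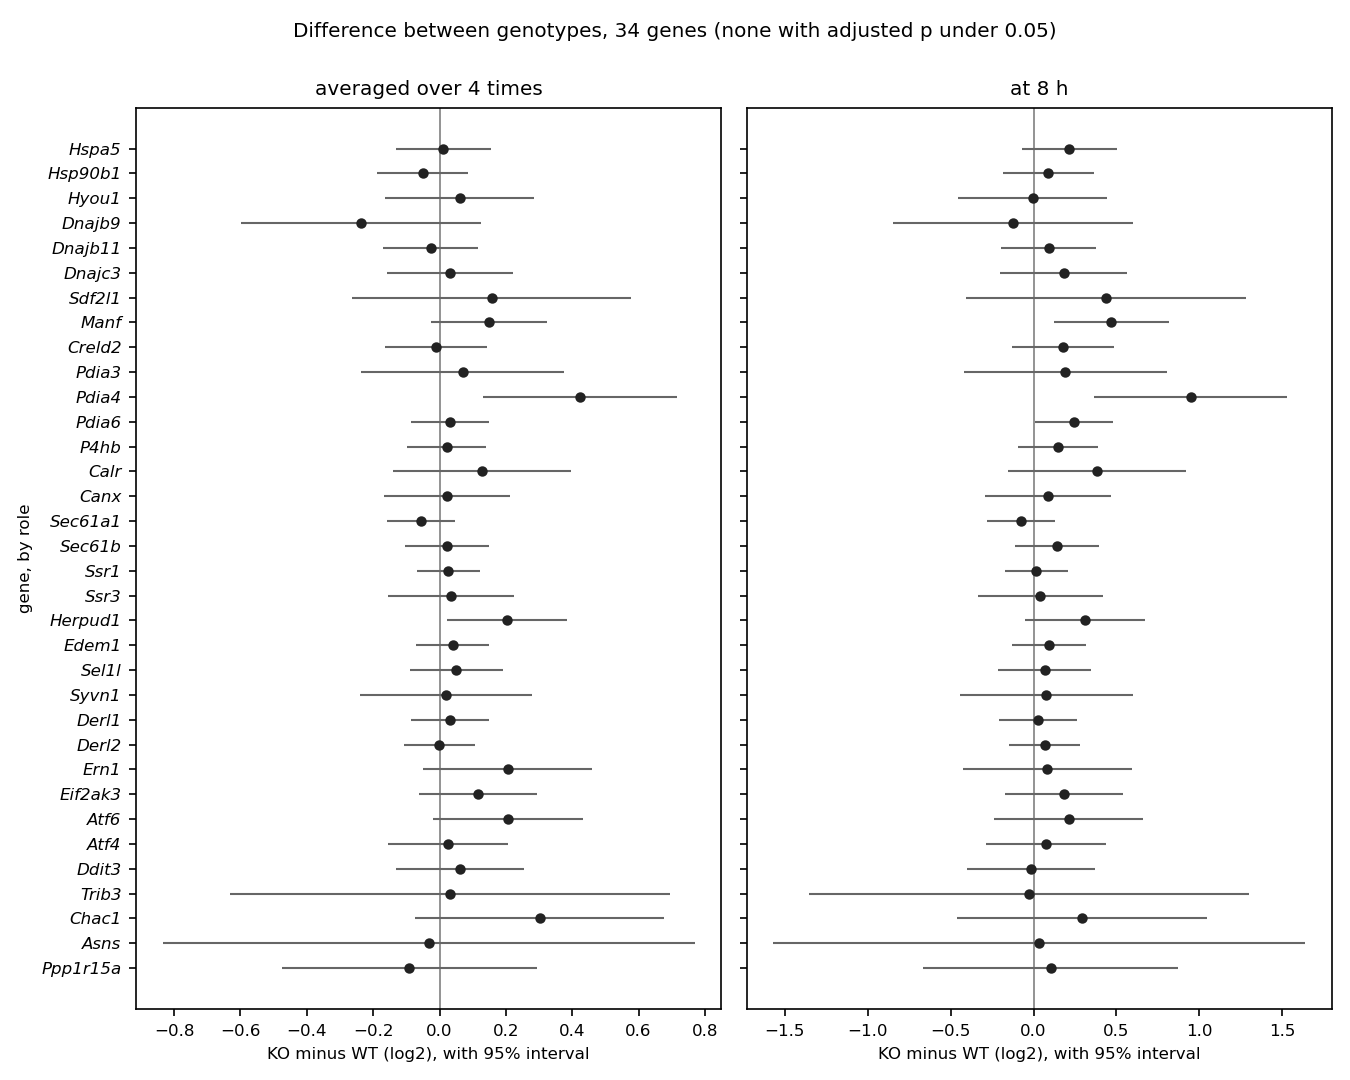
KO minus WT in log2 units for the 34 genes, by role, averaged over the 4 times (left) and at 8 h (right), with points for the difference and bars for limma's 95% interval. Of the averaged intervals only those of Pdia4 and Herpud1 leave out 0, at 8 h those of Pdia4, Manf and Pdia6, and none has an adjusted p under 0.05; the 2 panels have different horizontal scales.

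Another 98 genes of the pathway were listed, and 88 were tested. In WT 25 were higher and 21 lower at 3 h (28.4% and 23.9%, against 17% and 21.3% of all genes), 29 and 14 at 8 h (33% and 15.9%, against 17.7% and 15.7%), and 34 and 15 at 16 h (38.6% and 17%, against 20.9% and 18.5%). In KO the counts were 25 and 23 (all genes 16.6% and 21.7%), 32 and 12 (17.3% and 14.4%), and 30 and 14 (19.4% and 16.4%). The lower share was thus near that of all genes at each time in WT, and the higher share above it. Of 19 further genes of the integrated stress response 7 were higher and 1 lower at 3 h in both genotypes (36.8% and 5.26%), led by the amino acid transporter Slc7a5 (4.11 with SE 0.25 and adjusted p = 1.06e-11 in WT), the mitochondrial folate enzyme Mthfd2 (2.81 with SE 0.156 and adjusted p = 4.51e-12) and the serine hydroxymethyltransferase Shmt2 (1.85 with SE 0.17 and adjusted p = 5.42e-09). At 16 h these 3 were still above 0 h in WT (2.67, 2.15 and 1.83).

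Of 12 genes of N-glycosylation and glucose trimming 6, 7 and 8 were higher after 3, 8 and 16 h in WT (50%, 58.3% and 66.7%, against 17%, 17.7% and 20.9% of all genes), with 0 lower. Further folding enzymes and chaperones were mostly lower at 3 h, 11 of 19 against 1 higher in WT (57.9% lower, all genes 21.3%) and 10 against 2 in KO (52.6% lower, all genes 21.7%). Mzb1 (pERp1), a B lineage cofactor of immunoglobulin assembly, was among them with -2.00 (SE 0.152, adjusted p = 2.73e-10) in WT and -1.90 (SE 0.152, adjusted p = 6.49e-10) in KO, followed by -0.80 and -1.57 at 16 h. Creb3l2, a membrane-bound transcription factor of secretory cells, fell most at 3 h (-3.66 with SE 0.663 and adjusted p = 8.55e-05 in WT, -3.27 with SE 0.663 and adjusted p = 0.000308 in KO). At 16 h the oxidase Ero1b, the calcium-binding Nucb2 and the transcription factor Cebpb were lowest in WT (-2.76 with SE 0.17 and adjusted p = 9.03e-12, -2.50 with SE 0.215 and adjusted p = 1.55e-09 and -2.62 with SE 0.387 and adjusted p = 5.62e-06).

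Xbp1, whose mRNA is spliced by IRE1, stayed between 12.27 and 13.03 on all 24 arrays. It passed at 8 h in KO (0.35 with SE 0.112 and adjusted p = 0.02) and not in WT (0.06 with SE 0.112 and adjusted p = 0.743), and a probe set of this kind does not tell spliced from unspliced mRNA. Atf3, an immediate stress factor, was lower at 8 and 16 h in WT (-1.81 with SE 0.668 and adjusted p = 0.0399 and -2.40 with SE 0.668 and adjusted p = 0.00528), and in KO its values were -0.63 (SE 0.668, adjusted p = 0.549) and -1.24 (SE 0.668, adjusted p = 0.164). KO 0 h replicate 1 read 5.26 for Atf3, against 9.07 and 9.94 in the others. Without that array, a setting chosen after seeing the data, Atf3 was lower in KO too, with -2.04 (adjusted p = 9.05e-05) after 8 h and -2.65 (adjusted p = 2.57e-06) after 16 h. Of the 88 genes 1 passed KO minus WT averaged over the times, the thioredoxin-like Erp44 (0.26 with SE 0.0599 and adjusted p = 0.0246), and 0 passed at single times. Of all genes 1.21% passed the averaged contrast, and 1 of 88 is near that share.

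The 34 genes had 47 further tested probe sets. At 16 h in WT 25 of them belong to genes that were called, and of these 19 had the same sign and 13 passed with it, and 2, of Sec61a1 and Edem1, passed with the opposite sign to the brightest. In KO at 16 h 24 of 28 had the same sign and 10 passed with it, and again 1 each of Sec61a1 and Edem1 passed the other way. At 8 h in KO a probe set of each of these 2 genes also passed with the opposite sign. None of the 47 passed KO minus WT in any of the 5 contrasts.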

How the data were processed

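RNA of 24 samples was measured on Affymetrix arrays. The authors deposited log2 signals made with MAS5, per the submitters' processing notes, and the deposited log2 values were used unchanged. Of 45101 probe sets, 64 controls were left out, and a probe set was named only where GEO's platform annotation gives 1 gene. A gene was taken at its brightest probe set by the mean over all arrays and tested if it lay above the 40th percentile of its own array on at least 3 arrays.

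Group means of all 24 arrays were fitted in limma 3.58.1 (R 4.3.3) with a mean-variance trend and 16 residual degrees of freedom. The p-values were adjusted by Benjamini-Hochberg over 14318 genes, and a gene was called at an adjusted p under 0.05. The script was tested on simulated data.

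The members and lists were chosen with earlier results of these data known. All 34 may be named, and of the other pathway genes up to 3 called per direction and contrast with the largest change, and always Xbp1, Atf3 and Mzb1. The number of arrays limits the precision. Alternatives changed normalization, filter, the probe sets fitted together, floor, block, arrays and the trend. With every probe set fitted, each gene was still read at its brightest one.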

Additional observations from a re-analysis of the deposited data

How the results depend on the processing

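None of 646 results of the 34 genes reversed a called direction under the 13 alternative settings or without 1 of the 24 arrays. The F-tests among them have no direction. The setting that fitted every probe set read each gene at its brightest one again, so it could not show a reversal on another. Sec61a1 and Edem1 had a probe set that passed with the opposite sign at 16 h in both genotypes and at 8 h in KO. Ssr1 had such a probe set from 8 to 16 h in both genotypes. The shares of all genes under each setting are not given here, so the counts below do not set the 34 apart. Of the counts of genes called, those of KO minus WT and of the differences in change stayed 0 throughout, and the following moved by over 1.5 times. Against 14 at 3 h in WT, limma's fit without trend gave 8. Against 19 at 8 h in WT, leaving out the arrays past the planned limit on Y-linked signal, which took out 6 arrays, gave 11. From 3 to 8 h in WT (16), median scaling gave 2, a fit of only the compared groups 10, no trend 9, the Y-linked limit 1, and leaving out the 4 male-type arrays, an alternative chosen after seeing the data, 4. From 8 to 16 h in WT (4), median scaling and only the compared groups gave 2 each and the Y-linked limit 1. At 16 h in KO (22) median scaling gave 13, and from 3 to 8 h in KO (15) it gave 6. From 8 to 16 h in KO (5), median scaling, only the compared groups and no trend gave 2 each, the random block 9, and leaving out the 2 arrays of highest background 1. Leaving out 1 array gave 10 to 15, 15 to 20 and 17 to 21 at 3, 8 and 16 h in WT, and 11 to 15, 16 to 21 and 17 to 22 in KO. For the steps from 3 to 8 h and from 8 to 16 h it gave 3 to 16 and 2 to 5 in WT, and 12 to 18 and 2 to 6 in KO.

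The replicate numbers do not pair the samples by the labels, and the deviations of same-numbered arrays at other times of a genotype correlated at 0.02 to 0.374 in 36 pairs, 16 of them over 0.1. As a hint from the data, every array correlated best with its own number in 72 of 72 comparisons within its genotype. With the number as a replicate block the counts were 18, 25 and 29 at 3, 8 and 16 h in WT and 18, 24 and 28 in KO, 24 from 3 to 8 h and 9 from 8 to 16 h in KO, and 21 and 6 in WT. Asns and Sdf2l1 were then called at all 6 stimulated times, and Calr and Pdia3 at 8 and 16 h in both genotypes. Sel1l was called at 3 h in KO and Atf6 at 16 h in WT. Hspa5 gained calls at 3, 8 and 16 h in WT and at 16 h in KO. The adjusted p of Calr was 0.00527 and 0.000112 in WT and 8.79e-06 and 0.00117 in KO. Signals near the level of the filter limit Trib3 and Chac1.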
